A study of Mus musculus with 30 samples.

Results

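Oxidative phosphorylation subunits are the nuclear-encoded proteins that make up the respiratory chain and the ATP synthase, and the expression of their genes was followed in the livers of mice with and without a history of obesity. The genes were chosen by symbol in the array's annotation (the *Ndufa*, *Ndufb*, *Ndufc*, *Ndufs* and *Ndufv* genes, *Sdha* to *Sdhd*, the *Uqcr* genes, *Cox4* to *Cox8* and *Atp5*), with the probe set of highest mean signal for each gene. This gave 80 of 22180 genes that have a symbol of their own: 33 of complex I, 4 of complex II, 8 of complex III, 17 of complex IV and 18 of complex V. Of these, 78 are protein coding and 2 are pseudogenes (*Atp5c1-ps* and *Uqcrh-ps1*). Complexes were assigned by symbol alone, so that *Ndufa4* and *Ndufa4l2* count under complex I and *Cox7a2l* under complex IV. The symbol patterns themselves used no measured values, but the members were chosen with earlier results of these data known. A further 10 probe sets that carry a subunit symbol beside another gene's were not counted as members.

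Expression was measured on Mouse Gene 2.0 ST arrays (Affymetrix) in 30 livers of male wild-type C57BL6/J mice aged 35 weeks, with 1 array for each liver and 6 livers in each of 5 groups. Obese mice were on HFD, a diet high in fat and sucrose, for 27 weeks, and formerly obese mice ate it for 20 weeks and then the low-fat control diet for 7 weeks. Lean mice ate the control diet for 27 weeks. Mice of the formerly obese-HFD and lean-HFD groups had the same histories as the formerly obese and lean mice and were then given HFD for 48 h. The obesity was caused by diet alone, with no transgene, and the livers were taken as whole tissue, in which fewer cells of a type and less RNA per cell cannot be told apart.

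Complexes I to IV pass electrons from NADH and succinate to oxygen. Complexes I, III and IV pump protons across the inner mitochondrial membrane as they do so, and complex V uses the returning protons to make ATP. Succinate dehydrogenase, complex II, is at the same time an enzyme of the citric acid cycle and has no subunit from mitochondrial DNA. In the liver the chain serves the oxidation of fatty acids and supplies the ATP for gluconeogenesis. Several subunits of complex IV exist as a common form, which the liver uses, and a form made mainly in muscle, lung or testis.

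Many promoters of these genes are known to be bound by the nuclear respiratory factors NRF1 and GABPA, of which GABPA belongs to the ETS family. RefSeq promoter windows (build GRCm38.p6) were found for 64 of the 80 members, and the 250 bases before the start were searched on both strands. The NRF1 letters, GCGCA and GCGC with 1 base of any kind between them, occurred in 11 of 64 member windows (17.2%) and in 3.74% of all 32851 windows. The ETS letters CCGGAAG occurred in 12 of 64 member windows (18.8%) and in 6.91% of all windows. The YY1 letters AAGATGGC occurred in *Atp5j* alone (1.56% of member windows, 1.56% of all), and the estrogen-related receptor letters TCAAGGTCA in *Atp5g3* alone (1.56% of member windows, 0.387% of all). At least 1 of these 4 sets of letters was held by 21 member windows (32.8%) and by 11.7% of all windows, and the median GC content was 55.4% in member windows and 52.4% in all.

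The windows of 4 members are shown, *Cox6a1* because it holds the NRF1 letters at 2 places beside the ETS letters, and *Ndufa8*, *Ndufa6* and *Cox7a1* because the results below turn on them. Each is written 5′ to 3′ on the gene's strand and ends at the base before the start, with matched letters in capitals. The places are chr5:115348959-115349208 (minus strand) for *Cox6a1*, chr2:36049339-36049588 (minus strand) for *Ndufa8*, chr15:82354292-82354541 (minus strand) for *Ndufa6* and chr7:30183921-30184170 (plus strand) for *Cox7a1*.
Cox6a1: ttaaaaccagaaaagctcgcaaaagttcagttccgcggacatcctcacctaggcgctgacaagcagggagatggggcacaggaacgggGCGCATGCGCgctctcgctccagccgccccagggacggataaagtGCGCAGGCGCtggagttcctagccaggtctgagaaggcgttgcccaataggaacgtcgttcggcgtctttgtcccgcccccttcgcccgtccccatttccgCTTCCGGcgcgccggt
Ndufa8: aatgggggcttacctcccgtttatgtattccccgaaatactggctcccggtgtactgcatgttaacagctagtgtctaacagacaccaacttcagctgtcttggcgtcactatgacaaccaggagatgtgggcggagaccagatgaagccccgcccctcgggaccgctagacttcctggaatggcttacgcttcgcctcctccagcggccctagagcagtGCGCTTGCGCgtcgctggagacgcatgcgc
Ndufa6: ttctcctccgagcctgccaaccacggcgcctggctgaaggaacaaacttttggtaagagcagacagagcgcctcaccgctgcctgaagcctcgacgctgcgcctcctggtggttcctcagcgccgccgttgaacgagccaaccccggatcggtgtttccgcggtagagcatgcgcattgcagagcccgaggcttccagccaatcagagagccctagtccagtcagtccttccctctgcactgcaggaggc
Cox7a1: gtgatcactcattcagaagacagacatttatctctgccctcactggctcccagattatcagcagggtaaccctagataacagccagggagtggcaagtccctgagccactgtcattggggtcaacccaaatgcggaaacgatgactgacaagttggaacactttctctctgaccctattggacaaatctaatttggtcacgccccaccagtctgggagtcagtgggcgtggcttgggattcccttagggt
The window of *Ndufa8* holds the NRF1 letters on the opposite strand, 21 to 30 bases before the start. Those of *Ndufa6* and *Cox7a1* hold none of the 4 sets of letters, which says only that the letters are absent from these windows.

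Hepatocyte markers were bright in every group: the summed signal of 6 of them, on the linear scale, was 18690 to 21022 over the 30 livers. The skeletal muscle markers *Ckm*, *Acta1*, *Myh4* and *Mb* summed to 26.4 to 40.6, with 2 of the 4 at or below a linear average of 8 in each group. Pairs of arrays correlated at *r* of 0.962 to 0.983 over all probe sets. Replicate 6 of the formerly obese-HFD group had the lowest mean correlation with the other arrays (0.968), followed by replicate 6 of the lean group (0.969).

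Signals are given on the log2 scale, differences as the group named before "vs" minus the group named after it, and folds as ratios of linear averages. A linear average above 8 in at least 1 group was reached by 77 of the 80 members, and *Atp5c1-ps*, *Cox7b2* and *Cox8c* stayed below it. Among these 77 the standard deviation between livers of a group had a median of 0.12, against 0.22 over the 15143 genes past the same average. The members' probe sets were also the brighter ones, with a median signal of 9.06 against 4.79, and the part of brightness in the smaller spread was not tested.

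Each comparison was fitted with limma on its 12 livers over all 41345 probe sets. A gene passed the criteria of the study with limma *P* under 0.01, a fold above 1.2 in either direction and a linear average above 8. None of the 80 members passed in any of 6 comparisons, and none passed a false discovery rate (FDR) of 10% there. Beside the FDR, an unadjusted two-sided exact permutation *P* over the 12 livers, which cannot be below 0.00216, is given for the members at limma *P* under 0.05. The permutation uses the same livers that selected these members, so it is no independent support for them. Comparisons with a group in common share its livers. The background share of genes past the criteria was 2.35% in obese vs lean livers, 0.735% in formerly obese vs lean, 2.74% in formerly obese vs obese, 1.42% in lean-HFD vs lean, 1.12% in formerly obese-HFD vs formerly obese and 0.888% in formerly obese-HFD vs lean-HFD. An FDR of 10% was passed by 0.117%, 0%, 0.275%, 0.00902%, 0.0316% and 0% of all genes in the same comparisons. At an unadjusted limma *P* under 0.05 these comparisons gave 3, 1, 4, 3, 3 and 0 members. The corresponding shares of all genes were 8.37%, 5.23%, 9.76%, 6.78%, 5.84% and 4.98%, against member shares of 3.75%, 1.25%, 5%, 3.75%, 3.75% and 0%.

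**Figure D1:**
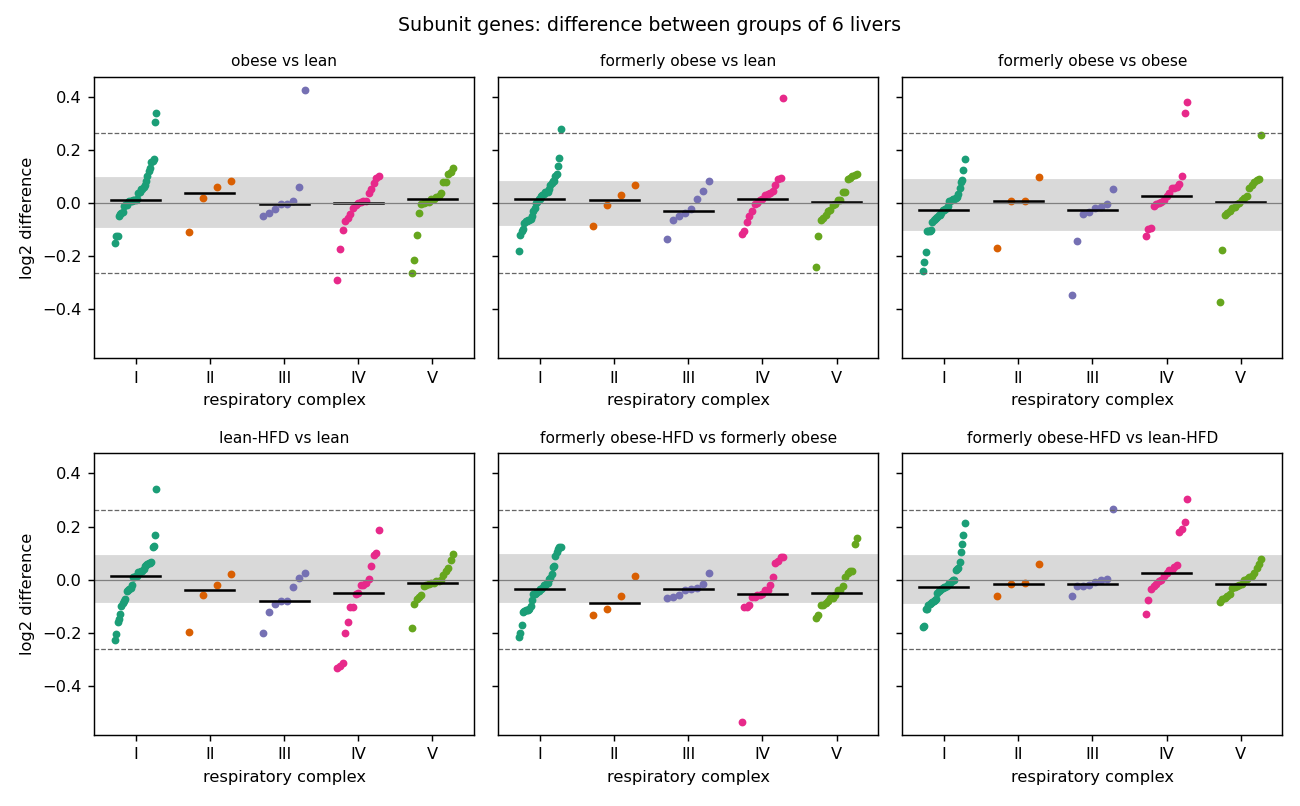
Log2 difference of each subunit gene (1 point each) by respiratory complex, in 6 comparisons of 6 against 6 livers. Black lines are medians by complex, the grey band spans the middle 50% of all 22180 genes, dashed lines mark 1.2-fold, and most points lie between the dashed lines with *Cox7a1* lowest at -0.54 in formerly obese-HFD vs formerly obese livers.

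The precision of the arrays allowed upper limits on the differences. In each of the 6 comparisons the whole 95% interval lay inside 2-fold for all 77 members past the average. It lay inside 1.5-fold for 71 to 76 of them, and inside 1.2-fold for 47 in obese vs lean, 48 in formerly obese vs lean and 39 in formerly obese-HFD vs formerly obese livers. Of all genes past the average, 14% to 19.5% were bounded inside 1.2-fold.

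**Figure D2:**
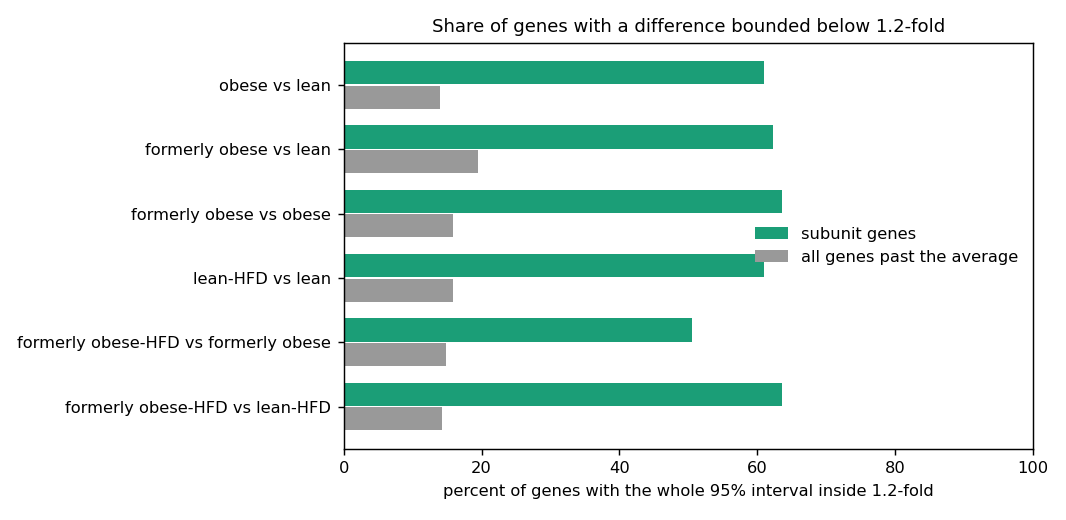
Percent of genes past the average whose whole 95% limma interval lies inside 1.2-fold in either direction, for subunit genes (green) and for all such genes (grey), by comparison. Between 50.6% and 63.6% of subunit genes and between 14% and 19.5% of all genes were bounded in this way.

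Across all 6 comparisons at once, 23 members stayed inside 1.2-fold with their whole interval: 8 of complex I, 1 of complex II (*Sdhc*), 2 of complex III (*Uqcrfs1* and *Uqcrh*), 5 of complex IV and 7 of complex V. The narrowest limits belonged to *Atp5e*, the epsilon subunit of the ATP synthase, and to *Ndufa4*, first assigned to complex I and later found with complex IV. The farthest limit of any of their 6 intervals was 0.16 for *Atp5e* and 0.17 for *Ndufa4*. That limit was 0.51 for *Ndufa4l2*, which had a mean signal over the 30 livers of 3.24. *Ndufa4* had lowest, median and highest signals of 11.57, 11.61 and 11.64 in formerly obese-HFD livers, 11.57, 11.64 and 11.68 in formerly obese, 11.54, 11.63 and 11.73 in obese, 11.56, 11.64 and 11.70 in lean-HFD and 11.55, 11.60 and 11.74 in lean livers. All 5 ranges overlapped. At the other end, 9 members had an interval that reached past 1.5-fold in at least 1 comparison: *Cox7a1*, *Cox6a2*, *Cox6b2*, *Cox8b*, *Atp5g1*, *Ndufb3*, *Ndufb11*, *Ndufs5* and the pseudogene *Uqcrh-ps1*.

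None of the measured core subunits of complex I passed a test. Complex I takes electrons from NADH, and 6 of its nuclear-encoded core subunits were measured (*Ndufs1*, *Ndufs3*, *Ndufs7*, *Ndufs8*, *Ndufv1*, *Ndufv2*). Their 36 differences in the 6 comparisons lay between -0.12 and 0.16 and none had *P* under 0.05. The 2 largest, *Ndufs8* (0.16 ± 0.08, SE, limma FDR = 0.685) and *Ndufv1* (0.16 ± 0.09, limma FDR = 0.698), were both in obese vs lean livers.

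Complex II has 4 subunits, all measured. *Sdha*, the flavoprotein that oxidises succinate, had lowest, median and highest signals of 9.64, 9.90 and 10.06 in formerly obese-HFD livers, 9.90, 9.998 and 10.09 in formerly obese, 9.89, 9.98 and 10.10 in obese, 9.86, 9.94 and 10.02 in lean-HFD and 9.87, 9.92 and 10.01 in lean livers. The low formerly obese-HFD value was 1 liver, and the ranges overlapped. *Sdhb*, the iron-sulphur subunit, differed by -0.17 ± 0.09 (SE) in formerly obese vs obese livers (limma FDR = 0.648), and *Sdhd*, a membrane anchor, by -0.20 ± 0.12 in lean-HFD vs lean livers (limma FDR = 0.842).

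In complex III the Rieske iron-sulphur protein *Uqcrfs1* and the core proteins *Uqcrc1* and *Uqcrc2* had differences between -0.14 and 0.06 in the 6 comparisons, all with *P* above 0.05. The low limit of the *Uqcrc2* intervals was -0.33 and the high limit 0.20. The pseudogene *Uqcrh-ps1* had the largest complex III difference, 0.43 ± 0.22 in obese vs lean livers (limma FDR = 0.67), on a signal of 2.36 to 3.85 in obese and 2.32 to 3.19 in lean livers.

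In complex IV most of the common isoforms were bounded closely. The intervals of *Cox7b* and *Cox8a* reached past 1.2-fold in at least 1 comparison, with farthest limits of 0.37 and 0.27. *Cox4i1* had intervals that lay within -0.21 and 0.19 in all 6 comparisons, *Cox6a1* within -0.20 and 0.21, *Cox6b1* within -0.26 and 0.25, *Cox7a2* within -0.21 and 0.22 and *Cox8a* within -0.27 and 0.21. The intervals of *Cox5a*, which has no second isoform, lay within -0.25 and 0.22. Those of *Cox5b* were wider, with a farthest limit of 0.35. The tissue isoforms had wider ones, with *Cox4i2* (lung form) within -0.53 and 0.53 and *Cox6a2* (muscle form) within -0.68 and 0.69, on mean signals over the 30 livers of 3.23 and 3.92. *Cox6b2*, the testis form, differed by 0.39 ± 0.20 in formerly obese vs lean livers (limma FDR = 0.857).

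In complex V the head subunits *Atp5a1* (alpha) and *Atp5b* (beta) each differed by 0.11 in formerly obese vs lean livers, with limma FDR = 0.87 for both. The 3 genes of the c ring, *Atp5g1*, *Atp5g2* and *Atp5g3*, encode the same mature protein. *Atp5g2* and *Atp5g3* had differences between -0.07 and 0.11 in the 6 comparisons, and *Atp5g1*, with a mean signal of 3.42, had -0.37 ± 0.20 in formerly obese vs obese livers (limma FDR = 0.648).

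Obese vs lean livers differ in established obesity and in the diet eaten when the liver was taken, which cannot be told apart. The members' differences had a median of 0.0078, with 51 of 80 above 0, beside a median of 0.00083 over all genes. *Ndufb11*, an X-linked accessory subunit of the complex I membrane arm, had lowest, median and highest signals of 5.75, 6.15 and 6.38 in obese livers and 5.58, 5.76 and 6.17 in lean livers. The ranges overlapped, and the difference was 0.31 ± 0.12 (SE, limma FDR = 0.573, exact permutation *P* = 0.0433). *Atp5o*, the stalk protein OSCP that holds the ATP synthase head in place, had 3.99, 4.33 and 4.42 in obese and 4.41, 4.47 and 4.63 in lean livers, with a difference of -0.21 ± 0.09 (limma FDR = 0.611, exact permutation *P* = 0.00649). *Cox7a1*, the heart and muscle form of complex IV subunit VIIa, had 5.65, 5.94 and 6.16 in obese and 5.93, 6.21 and 6.41 in lean livers, with a difference of -0.29 ± 0.12 (limma FDR = 0.609, exact permutation *P* = 0.0498). In all 3 genes the groups overlapped. *Ndufb11* passed the criteria without lean replicate 4 or obese replicate 6, and no member stayed under 0.05 when lean replicate 3 was left out. The 5 adipocyte markers summed to 47.0 to 128 in obese and 41.5 to 58.2 in lean livers. *Cidea*, a lipid droplet protein that fatty livers also express, was higher by 1.72, and *Adipoq*, *Lep* and *Ucp1* differed by -0.04, -0.03 and 0.06. *Plin1* was also in the sum, and its own difference is not given here. The part of these markers in the members' values was not tested.

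Formerly obese vs lean livers address what remains after weight loss. The median difference was 0.013, with 45 of 80 members above 0, beside -0.002 over all genes, and it was below 0 without formerly obese replicate 6 (-0.00095) or lean replicate 2 (-0.0085). The only member with *P* under 0.05 was *Ndufa2*, a thioredoxin-like accessory subunit of the complex I matrix arm, which had 9.26, 9.37 and 9.62 in formerly obese and 9.46, 9.55 and 9.74 in lean livers. The difference was -0.18 ± 0.08 (limma FDR = 0.845, exact permutation *P* = 0.0216), and *P* was above 0.05 in 10 of 12 fits that each left out 1 liver. The macrophage markers had a median difference of 0.55, with *Cd68* (0.54) and *Vsig4* (0.56) past the criteria, which 0.735% of all genes passed. Their summed signals overlapped, at 465 to 837 in formerly obese and 380 to 587 in lean livers. No gene passed an FDR of 10% in this comparison.

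Formerly obese vs obese livers differ in weight loss and in the diet eaten when the liver was taken, which cannot be told apart here. The median difference was -0.0016, with 42 of 80 members below 0, beside -0.007 over all genes. It had no settled direction: the median was 0.0091 with arrays centred on their medians, with 43 of 80 above 0, and it was above 0 without formerly obese replicate 1 (0.017), formerly obese replicate 5 (0.0045) or obese replicate 6 (0.0026). *Ndufa2* had 9.26, 9.37 and 9.62 in formerly obese and 9.47, 9.66 and 9.72 in obese livers, a difference of -0.22 ± 0.08 (limma FDR = 0.45, exact permutation *P* = 0.00866). *Cox7a1* had 5.85, 6.31 and 6.58 in formerly obese and 5.65, 5.94 and 6.16 in obese livers, a difference of 0.38 ± 0.14 (limma FDR = 0.452, exact permutation *P* = 0.0346). In both genes the groups overlapped. *Ndufa2* passed the criteria without formerly obese replicate 2, *Cox7a1* without formerly obese replicate 5 or obese replicate 3, and *Uqcrh-ps1* without obese replicate 2. *Ndufa8*, an accessory subunit of complex I with paired cysteine motifs, had 9.93, 10.02 and 10.12 in formerly obese and 9.77, 9.84 and 9.92 in obese livers. It was the only member whose groups did not overlap here (0.573% of all genes were higher without overlap and 0.523% lower), with a difference of 0.17 ± 0.07 (limma FDR = 0.503, exact permutation *P* = 0.00216). A second *Ndufa8* probe set did overlap, at 8.64 to 8.94 in formerly obese and 8.58 to 8.76 in obese livers. The pseudogene *Atp5c1-ps* differed by 0.26 ± 0.12 (limma FDR = 0.578, exact permutation *P* = 0.0476), on linear averages below 8.

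Lean-HFD vs lean livers address 48 h of HFD in mice that had never eaten it. The median difference was -0.019, with 48 of 80 members below 0, beside 0.00083 over all genes. With arrays centred on their medians the members' median was -0.0091. *Atp5c1*, the gamma subunit that turns inside the ATP synthase head, had 5.65, 5.75 and 5.84 in lean-HFD and 5.86, 5.91 and 6.06 in lean livers. It was the only member whose groups did not overlap here (0.271% of all genes were lower without overlap and 0.293% higher), and the difference was -0.18 ± 0.07 (limma FDR = 0.679, exact permutation *P* = 0.00216). *Ndufa6*, an LYR-motif accessory subunit of complex I that binds the mitochondrial acyl carrier protein, had 10.10, 10.14 and 10.23 in lean-HFD and 10.22, 10.30 and 10.60 in lean livers, with a difference of -0.20 ± 0.08 (limma FDR = 0.703, exact permutation *P* = 0.00433). These groups overlapped, since the highest lean-HFD liver lay above the lowest lean liver. *Cox8b*, the muscle form of subunit VIII, differed by -0.33 ± 0.14 (limma FDR = 0.736, exact permutation *P* = 0.0498) on a mean signal of 2.93, and passed the criteria without lean-HFD replicate 4.

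Formerly obese-HFD vs formerly obese livers address the same 48 h after a history of obesity. The median difference was -0.042, with 57 of 80 members below 0, beside 0.0065 over all genes. All 5 complexes had medians below 0, between -0.087 for complex II and -0.037 for complexes I and III. Formerly obese-HFD replicate 6 had the lowest median over the members of all 30 livers, and without it the median difference was -0.022 with 50 of 80 members below 0. The median was -0.060 with arrays centred on their medians.

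*Ndufa8* had 9.66, 9.81 and 9.91 in formerly obese-HFD and 9.93, 10.02 and 10.12 in formerly obese livers. It was the only member without overlap here (0.343% of all genes were lower without overlap and 0.18% higher), with a difference of -0.22 ± 0.07 (limma FDR = 0.678, exact permutation *P* = 0.00216). Its limma *P* was under 0.01, and its fold of 0.861 did not reach the fold of the criteria. The groups overlapped in a second *Ndufa8* probe set, at 8.47 to 8.73 in formerly obese-HFD and 8.64 to 8.94 in formerly obese livers. *Ndufa6* had 10.001, 10.12 and 10.20 in formerly obese-HFD and 10.17, 10.29 and 10.38 in formerly obese livers, with a difference of -0.17 ± 0.07 (limma FDR = 0.815, exact permutation *P* = 0.00649). *Cox7a1* had 5.21, 5.75 and 6.43 in formerly obese-HFD and 5.85, 6.31 and 6.58 in formerly obese livers, with a difference of -0.54 ± 0.20 (limma FDR = 0.787, exact permutation *P* = 0.039) and an interval of -0.97 to -0.10. *Cox7a1* passed the criteria without formerly obese replicate 5 or formerly obese-HFD replicate 1, and with all 30 livers in a single fit. In both genes the groups overlapped. The muscle markers summed to 28.5 to 35.0 in formerly obese-HFD and 26.4 to 36.9 in formerly obese livers, with differences of -0.07 to 0.05 and none with *P* under 0.05. The adipocyte markers summed to 32.4 to 42.7 and 38.0 to 55.6 in the same groups, and *Ucp1* alone had *P* under 0.05 (-0.17 ± 0.07). The part of these markers in the *Cox7a1* values was not tested.

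**Figure D3:**
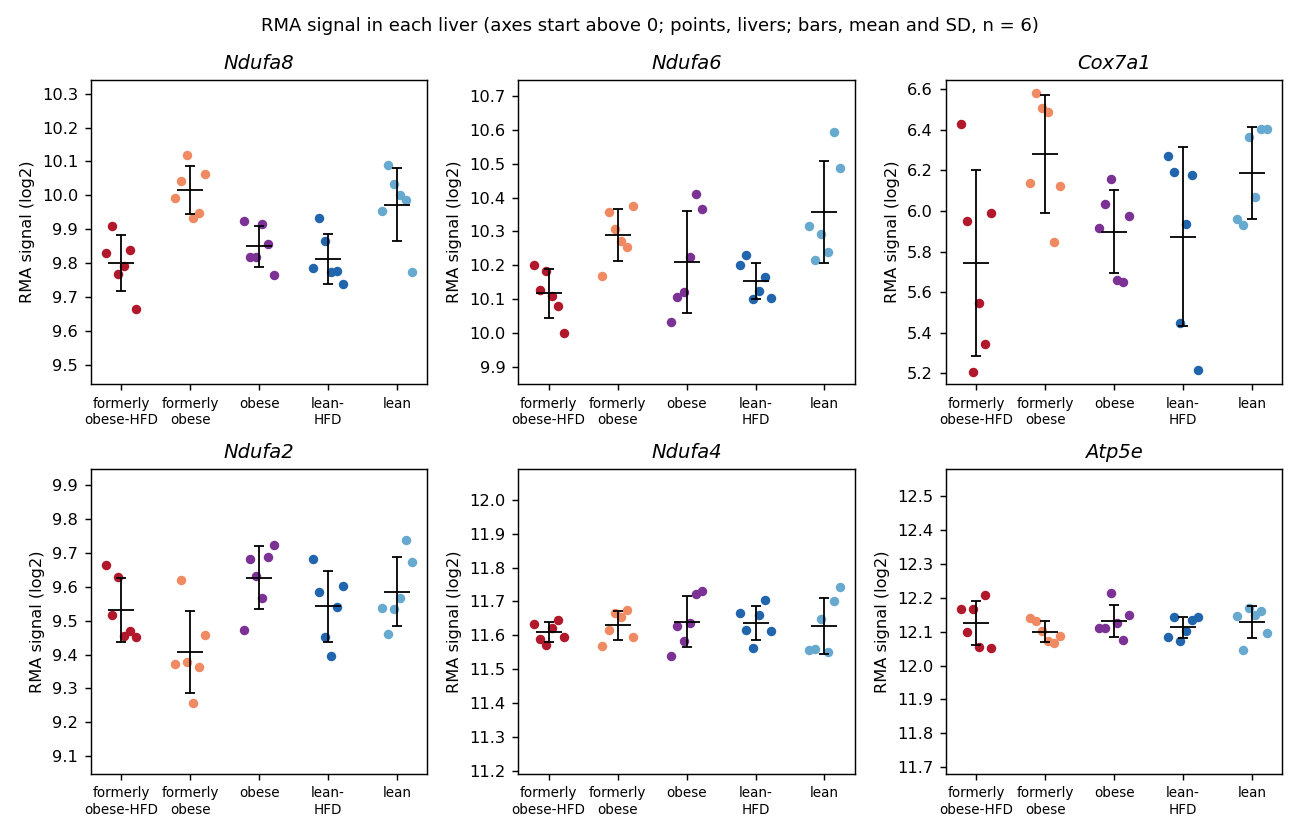
RMA signal (log2) of 6 subunit genes in each of the 30 livers, by group, with the mean and SD of 6 livers as black bars (axes do not start at 0). *Ndufa8*, *Ndufa6* and *Cox7a1* have lower means in the 3 groups that ate HFD when the liver was taken than in the formerly obese and lean groups. *Ndufa2* is lowest in formerly obese livers, and *Ndufa4* and *Atp5e* are level.

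Formerly obese-HFD vs lean-HFD livers compare the histories on the same refeeding, and no member had *P* under 0.05. The smallest was that of *Ndufb8*, an accessory subunit of the complex I membrane arm, at -0.18 ± 0.09 (limma FDR = 0.908). Without lean-HFD replicate 3 *Ndufb8* was under 0.05, and without lean-HFD replicate 4 *Cox6b2* and *Cox8b* were. The median was -0.016 with 52 of 80 members below 0, beside -0.0012 over all genes. Without formerly obese-HFD replicate 6 it was 0.013 with 46 of 80 above 0, so that this liver set the direction. The interaction of history and refeeding, fitted on 24 livers, gave no member with *P* under 0.05 (4.67% of all genes) and none past an FDR of 10%. The interaction was -0.06 ± 0.09 for *Ndufa8*, 0.03 ± 0.10 for *Ndufa6* and -0.22 ± 0.29 for *Cox7a1*.

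After these values had been seen, both refeeding differences were averaged in the 24-liver fit. At *P* under 0.05 this gave 5 members, all lower after HFD (4.37% of all genes were lower): *Ndufa8*, *Ndufa6*, *Ndufa12*, *Cox7a1* and *Atp5c1*. None passed an FDR of 10%, which 0.487% of all genes passed. This call depended on the fit: *Ndufa8* had FDR = 0.0502 with all 30 livers and 0.0375 with a trended robust prior, and *Ndufa6* 0.0645 with that prior. With 1 liver left out in turn *Ndufa8* had FDRs of 0.0563 to 0.206, under 10% without lean replicate 6, lean-HFD replicate 2 or formerly obese-HFD replicate 2. The differences were -0.19 ± 0.05 (SE) for *Ndufa8* (limma FDR = 0.11), -0.19 ± 0.05 for *Ndufa6* (limma FDR = 0.162) and -0.43 ± 0.14 for *Cox7a1* (limma FDR = 0.385). *Atp5c1* differed by -0.16 ± 0.06 (limma FDR = 0.456) and *Ndufa12*, an accessory subunit of the matrix arm, by -0.11 ± 0.05 (limma FDR = 0.585). Of all 80 members 60 were below 0, the 8 of complex III and the 4 of complex II among them, with a median of -0.033 beside 0.004 over all genes. Since the same livers had prompted this average, it is no independent support for the separate comparisons.

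A second contrast of this kind set the 3 groups that ate HFD when the liver was taken (18 livers) against the 2 groups on the control diet (12 livers). *Ndufa8* was lower on HFD by 0.17 on the log2 scale (difference -0.17 ± 0.04, limma FDR = 0.0568) and was the only member past an FDR of 10%, which 0.537% of all genes passed. Its signals were 9.66 to 9.93 in the 18 livers on HFD and 9.77 to 10.12 in the 12 livers on the control diet. Of the 12 control-diet livers, 11 lay above every liver on HFD, and lean replicate 6 was the exception. The share of all genes separated to this degree was not computed. Since this contrast was also chosen after values of the same livers had been seen, it is no independent support either. Leaving out 1 liver in turn gave FDRs of 0.0195 to 0.129, above 10% without formerly obese replicate 3, formerly obese replicate 6 or lean replicate 2. A second *Ndufa8* probe set had a difference of -0.13 ± 0.04, and the mean of both gave an FDR of 0.121. *Ndufa6* had -0.16 ± 0.05 (limma FDR = 0.209), *Cox7a1* -0.40 ± 0.12 (limma FDR = 0.274) and *Sdhd* -0.15 ± 0.07 (limma FDR = 0.631), with 4 of 80 members lower at *P* under 0.05 against 4.37% of all genes.

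The subunit genes were also summarised in each liver by the median of their deviations from each gene's mean over the 30 livers. The lowest, median and highest livers were -0.151, 0.0026 and 0.042 in the formerly obese-HFD group, -0.052, 0.040 and 0.082 in the formerly obese, -0.052, 0.033 and 0.066 in the obese, -0.067, -0.023 and 0.034 in the lean-HFD and -0.057, 0.00081 and 0.062 in the lean group. All groups overlapped, and formerly obese-HFD replicate 6 was the lowest liver. In that liver the median deviation was -0.329 for complex II and -0.214 for complex I, but -0.072 for complex IV. Within groups, pairs of members past the average correlated weakly over the 30 livers, with a median *r* of 0.21 for pairs of the same complex and 0.18 for pairs of different complexes, all of them sharing the same arrays.

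**Figure D4:**
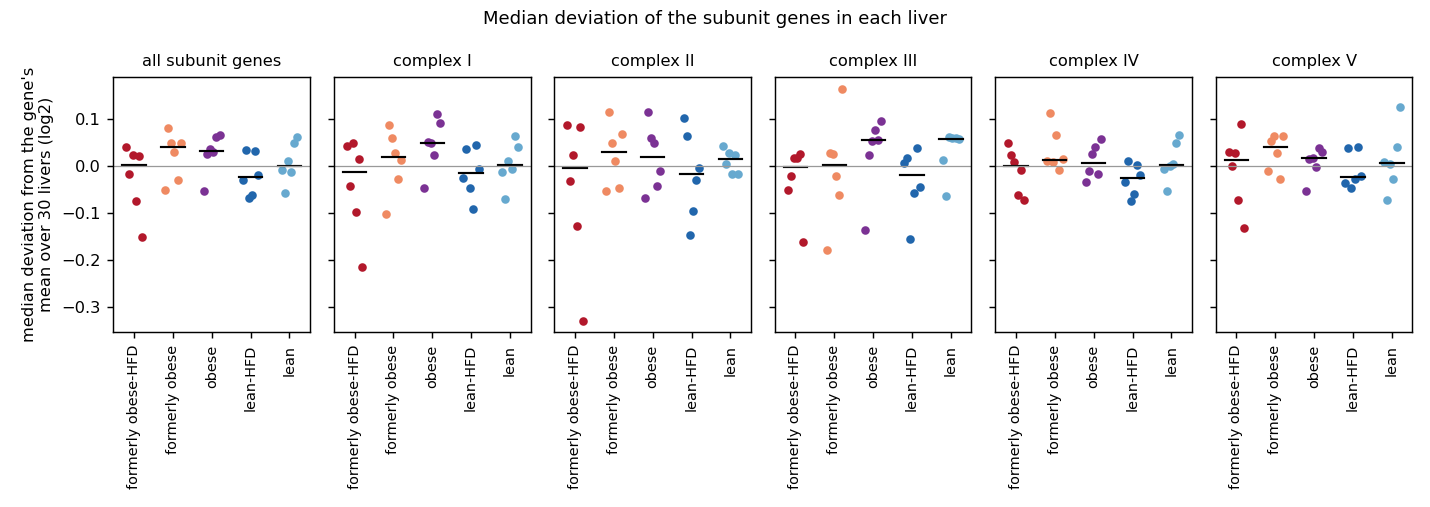
Median deviation (log2) of all subunit genes and of each complex in each liver (1 point each) from the genes' means over the 30 livers, by group, with group medians as black lines. The groups overlap in every panel, and the lowest point, -0.329 in complex II, is replicate 6 of the formerly obese-HFD group.

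Other genes of the pathway were followed as lists. Of 13 mitochondrially encoded subunits 10 were measured, and none had *P* under 0.05 in any of the 6 comparisons. Their medians were 0.0082 in obese vs lean, 0.0052 in formerly obese vs lean and -0.049 in formerly obese-HFD vs formerly obese livers, with 10 of 10 below 0 in the last. Their lowest liver was formerly obese-HFD replicate 1, with a median deviation of -0.257. The further chain genes *Cyc1*, *Cycs*, *Cyct* and *Ndufab1*, which the symbol patterns of the members do not match, had no *P* under 0.05.

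Of 57 assembly factors of complexes I to V, which build the complexes without staying in them, 54 were measured. In obese vs lean livers their median was 0.064 with 41 of 54 above 0, and 2 complex I factors rose past the criteria: *Ndufaf7* (0.45 ± 0.15, limma FDR = 0.433), a methyltransferase, and *Nubpl* (0.36 ± 0.12, limma FDR = 0.421), an iron-sulphur protein. In formerly obese vs obese livers 36 of 54 were below 0, and *Uqcc2*, a complex III factor (-0.30 ± 0.09, limma FDR = 0.376) and *Dmac2l* (-0.45 ± 0.14, limma FDR = 0.341) fell past the criteria. In lean-HFD vs lean livers *Foxred1*, a complex I factor, rose past them (0.42 ± 0.12, limma FDR = 0.537). None of the 5 passed an FDR of 10%. The criteria were passed by 2.35% of all genes in obese vs lean, 2.74% in formerly obese vs obese and 1.42% in lean-HFD vs lean livers.

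Of 17 regulators of mitochondrial biogenesis none passed the criteria in any comparison. In formerly obese-HFD vs formerly obese livers 15 of 17 were below 0, with a median of -0.12. *Tfam*, the packaging and transcription factor of mitochondrial DNA, had the only *P* under 0.05 (-0.27 ± 0.12, limma FDR = 0.833). Of all genes 5.84% had *P* under 0.05 there. In obese vs lean livers 9 of 17 were below 0, with a median of -0.088, and 4 had *P* under 0.05, beside 8.37% of all genes. Of these *Esrra*, an orphan receptor that drives subunit genes (0.30 ± 0.12), and *Polg*, the mitochondrial DNA polymerase (0.27 ± 0.09), were higher, and *Gabpb1*, a partner of GABPA (-0.22 ± 0.09), and *Twnk*, the mitochondrial DNA helicase (-0.24 ± 0.11), were lower, with limma FDRs of 0.459 to 0.638.

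In the citric acid cycle, which feeds the chain, *Cs* (citrate synthase) fell past the criteria after refeeding in both histories. Its lowest, median and highest signals were 7.90, 8.11 and 8.68 in formerly obese-HFD and 8.47, 8.59 and 8.71 in formerly obese livers, a difference of -0.43 ± 0.12 (limma FDR = 0.586). They were 8.03, 8.16 and 8.46 in lean-HFD and 8.26, 8.51 and 8.82 in lean livers, a difference of -0.35 ± 0.11 (limma FDR = 0.631). Both pairs of groups overlapped, and the other 12 measured cycle genes did not pass the criteria in either comparison. Of all genes 1.12% passed them in formerly obese-HFD vs formerly obese and 1.42% in lean-HFD vs lean livers.

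The 71 mitochondrial ribosomal proteins, which translate the mitochondrially encoded subunits, had medians between -0.033 and 0.069, and none passed the criteria. The 63 cytosolic ribosomal proteins had a median of 0.12 in formerly obese vs obese livers, with 54 of 63 above 0 and *Rpl14* (0.31 ± 0.09) and *Rpl8* (0.31 ± 0.09) past the criteria. In that comparison 2.74% of all genes passed the criteria, and the subunit genes had a median of -0.0016.

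**Figure D5:**
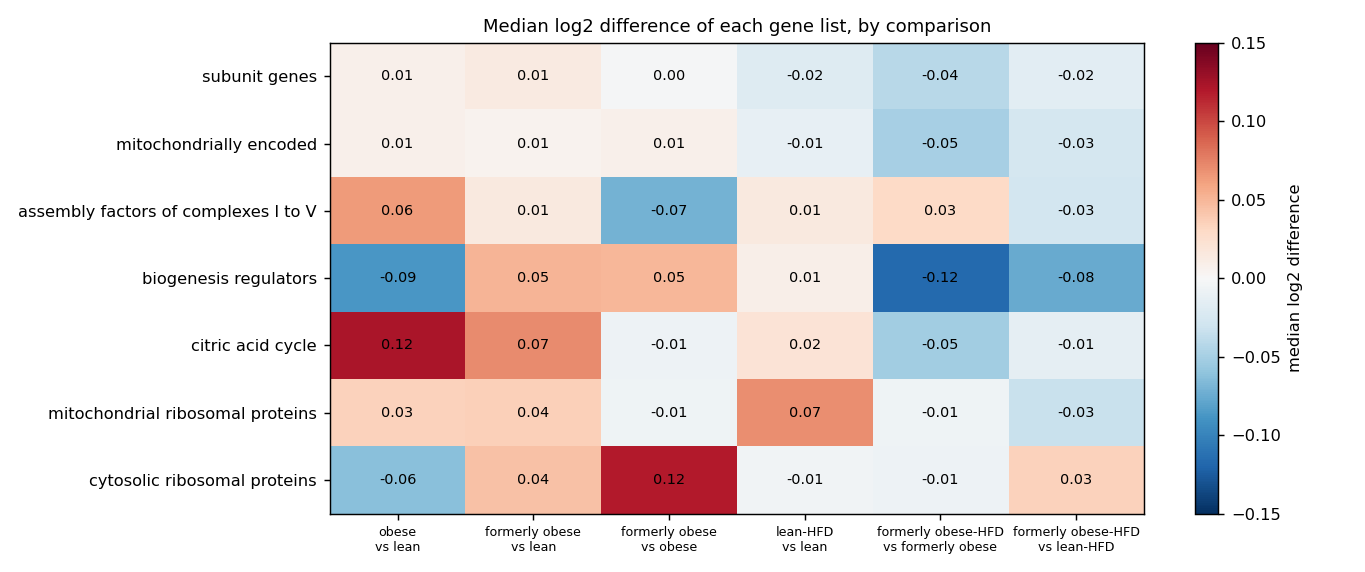
Median log2 difference of the subunit genes and of 6 other gene lists (rows) in the 6 comparisons (columns), with the value printed in each cell and red for higher. The subunit genes and the mitochondrially encoded genes stay within 0.05 of 0 in every column, and the cytosolic ribosomal proteins reach 0.12 in formerly obese vs obese livers.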

How the data were processed

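RNA of 30 livers was amplified and hybridised to Affymetrix Mouse Gene 2.0 ST arrays. The authors made the deposited values, log2 probe set signals, by RMA (background correction, sketch-quantile normalization and median polish) in Affymetrix Expression Console 1.4.1.46. The genome build of the array annotation was not given in the sources used here. Log2 values of each comparison's 12 livers were fitted with limma 3.58.1 in R 4.3.3 over all 41345 probe sets, and 24 livers for the interaction, with Benjamini-Hochberg adjustment over all of them, and the fit was tested on simulated data. Of these probe sets 23521 had 1 symbol, 1820 several and 16004 none. Groups came from the labels, 6 livers each, and *P* values measure the spread between these livers. Array number limits the precision. The members and gene lists were chosen with earlier results of these data known. Named members were the 3 of smallest *P* per complex and comparison where the text turns on them, core and catalytic subunits, isoform pairs and c subunit genes, and other lists were named by the criteria; *Tfam*, *Esrra*, *Polg*, *Gabpb1*, *Twnk*, *Ndufb8* and *Ndufa12* were chosen after their values were seen. Alternatives were a 30-liver fit, a trended robust prior, array weights, median-centred arrays, other thresholds, probe set means, the replicate block, an exact permutation test and each liver left out. Promoter windows came from RefSeq (GRCm38.p6) and plots from Python 3.11.15 with matplotlib 3.10.9.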

Additional observations from a re-analysis of the deposited data

Results flagged for a closer look

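In 85 groups of 6 livers, 3 had a liver that stood apart from the others by Dixon's ratio, and chance marks about 1 group in 20. The pseudogene *Atp5c1-ps* had a log2 signal of 2.86 in lean replicate 1 and of 2.14 to 2.37 in the other lean livers (ratio 0.682). The median deviation of all subunit genes was -0.052 in obese replicate 1 and 0.027 to 0.066 in the other obese livers (ratio 0.666). In the same liver the median deviation of the complex III genes was -0.136, against 0.023 to 0.097 in the other obese livers (ratio 0.683).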

How the results depend on the processing

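The members' median difference changed sign in 3 comparisons. In formerly obese vs obese livers it was -0.0016, against 0.0091 with median-centred arrays and -0.023 to 0.017 with each liver left out in turn. It ranged from -0.0085 to 0.030 in formerly obese vs lean and from -0.026 to 0.013 in formerly obese-HFD vs lean-HFD livers. The count of members past the criteria, 0 in each comparison, became 1 in formerly obese-HFD vs formerly obese livers with all 30 livers in a single fit (*Cox7a1*) or with no threshold on the fold (*Ndufa8*). The count at *P* under 0.05 in formerly obese vs lean livers, 1, became 2 with all 30 livers, 3 with a trended robust prior, 2 with array weights and 2 with probe sets of several symbols. In lean-HFD vs lean livers 3 became 5 with the trended robust prior, and in the interaction 0 became 1 (*Ndufb8*) with all 30 livers. With each liver left out in turn, the count at *P* under 0.05 ranged from 0 to 4 in obese vs lean, 0 to 2 in formerly obese vs lean, 2 to 6 in formerly obese vs obese, 2 to 5 in lean-HFD vs lean, 2 to 4 in formerly obese-HFD vs formerly obese, 0 to 2 in formerly obese-HFD vs lean-HFD livers and 0 to 2 in the interaction, and from 4 to 7 for the averaged refeeding and 3 to 6 for the diet at the end. The count past the criteria ranged from 0 to 1 in obese vs lean, formerly obese vs obese, lean-HFD vs lean and formerly obese-HFD vs formerly obese livers. The cause was not tested. Named differences above *P* of 0.05 were, with all 30 livers, *Cox7a1* and *Ndufb11* in obese vs lean, *Cox7a1* and *Atp5c1-ps* in formerly obese vs obese and *Atp5c1* in lean-HFD vs lean livers. With the trended robust prior this was *Atp5o* in obese vs lean, with centred arrays *Ndufa2* in formerly obese vs lean, with probe set means *Ndufa8* in formerly obese vs obese livers and *Ndufa12* in the averaged refeeding, and with array weights *Sdhd* for the diet at the end.

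Replicate numbers are shared between groups, but same-numbered livers did not deviate together (*r* of -0.11 to 0.11). With the replicate number as a block, 1 member (*Cox7a1*) passed the criteria in formerly obese vs obese livers, and 6 named differences had *P* above 0.05, among them *Ndufa6* in lean-HFD vs lean and in formerly obese-HFD vs formerly obese livers.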

Other observations

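Probe sets not used for the members were read as well. A second *Ndufa8* probe set had lowest, median and highest signals of 8.47, 8.63 and 8.73 in formerly obese-HFD livers and 8.64, 8.82 and 8.94 in formerly obese livers, a difference of -0.17 ± 0.08 (SE, limma FDR = 0.835). In lean-HFD vs lean livers its difference was -0.13 ± 0.07 (limma FDR = 0.828).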
